A study of Mus musculus with 4 samples.

Results

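Retnla, Arg1, Mrc1 and Il10 are genes by which macrophages in the alternatively activated state are commonly recognised, and their probe sets were the only ones of the array annotated to exactly 1 of these symbols. There was 1 probe set for each gene, so 4 of 72688 probe sets are described here. The genes were chosen by their earlier-known antibody differences in these same arrays, in which Retnla stood high and Il10 and Mrc1 low. Values of the antibody comparison are therefore given as a description, without a test. RNA came from hepatic macrophages of male C57BL/6J mice carrying the CRCLM disease model, as the labels name it; the series concerns VEGFC and trans-lymphatic metastasis of colorectal cancer to the liver. The mice had received either an antibody against the chemokine CCL3 (anti-CCl3 in the labels) or an isotype control antibody, which has the same antibody class but another target. Each antibody group was measured in 2 cell fractions named by F4/80 and CD11b with the letter m or p, which the labels do not spell out. Each of the 4 combinations had 1 array, and doses, times, ages and the number of mice per array are not given in the sources used. Values are log2 signals, on which a difference of 1 is a doubling, and they have no replicate error within a combination.

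Alternative activation is the response of macrophages to the T helper 2 cytokines IL-4 and IL-13, which act through the receptor chain IL-4Rα and the transcription factor STAT6. Retnla encodes RELMα (also called FIZZ1), a secreted protein of the resistin family that is induced strongly by these cytokines. Arg1 encodes arginase, which turns arginine into ornithine and thereby competes with nitric oxide synthesis, and hepatocytes make it in large amounts for the urea cycle. Mrc1 encodes the mannose receptor CD206, an endocytic lectin that is also abundant on liver sinusoidal endothelium. Il10 encodes an anti-inflammatory cytokine that macrophages, T cells and B cells release and that signals through STAT3.

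The sequence before the Retnla start is shown because it is where STAT6 and C/EBP factors are known to act on this gene, and that of Retnlg because this neighbouring paralogue gives a comparison within the resistin family. Of the 4 genes, Retnla and Mrc1 had an entry in RefSeq's promoter table (GRCm38.p6). The 250 bases before the start were searched on both strands for a STAT6 motif, TTCNNNNGAA, and a C/EBP motif, TTGCNNAA. Capitals mark the matches, the strand is plus, and the regions are chr16:48842359-48842608 for Retnla and chr16:48872358-48872607 for Retnlg.
Retnla: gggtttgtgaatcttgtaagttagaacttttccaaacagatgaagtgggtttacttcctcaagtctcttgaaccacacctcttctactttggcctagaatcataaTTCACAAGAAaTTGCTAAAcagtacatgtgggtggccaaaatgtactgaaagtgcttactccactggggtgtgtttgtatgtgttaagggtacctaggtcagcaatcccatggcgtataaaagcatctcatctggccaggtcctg
Retnlg: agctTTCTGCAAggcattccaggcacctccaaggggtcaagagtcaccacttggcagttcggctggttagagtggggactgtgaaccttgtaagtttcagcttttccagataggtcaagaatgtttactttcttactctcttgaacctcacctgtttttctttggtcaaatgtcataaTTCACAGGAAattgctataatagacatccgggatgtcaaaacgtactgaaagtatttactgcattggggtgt

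In Retnla the STAT6 match began 145 bases and the C/EBP match 134 bases before the start, next to each other and without overlap. In Retnlg the STAT6 match began 72 bases before the start and the C/EBP match lay apart from it, at 246 bases. The windows of both genes shared 175 aligned bases, of which 78.9% were identical. Among 32851 windows of the same length, 5.85% held the STAT6 motif, 9.56% the C/EBP motif and 0.609% both. The Mrc1 window, chr2:14229164-14229413, held neither. A match is a description of letters and was not tested as a binding site.

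Retnla stood higher on both arrays of the anti-CCL3 group than on both arrays of the isotype group. Its log2 signal was 8.06 (fraction m) and 8.14 (fraction p) in the anti-CCL3 group, against 7.19 (m) and 6.70 (p) in the isotype group. The antibody groups did not overlap, and the lowest value was that of the isotype array of fraction p. The antibody difference, anti-CCL3 minus isotype, was 0.87 in fraction m and 1.43 in p; the fitted value was 1.15 ± 0.21 (SE, 4 arrays), a 2.22-fold ratio. Quantile normalisation gave 1.05 and cyclic loess 1.06. In the order of levels, both anti-CCL3 arrays were 0.08 apart, and both isotype arrays 0.49 apart.

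Arg1 had a smaller difference of the same sign. Its log2 signal was 6.44 (m) and 6.50 (p) in the anti-CCL3 group, against 6.18 (m) and 6.28 (p) in the isotype group. The groups did not overlap, and the gap between the nearest arrays of both groups was wider than the step between fractions within either group. The antibody difference was 0.26 in fraction m and 0.21 in p; the fitted value was 0.24 ± 0.11 (SE, 4 arrays), a 1.18-fold ratio.

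Mrc1 and Il10 stood lower on both anti-CCL3 arrays than on both isotype arrays. The log2 signal of Mrc1 was 6.22 (m) and 6.16 (p) in the anti-CCL3 group, against 6.28 (m) and 6.41 (p) in the isotype group. Its antibody difference was -0.06 in fraction m and -0.24 in p. The fitted value was -0.15 ± 0.13 (SE, 4 arrays), a size close to its fitted error. The log2 signal of Il10 was 6.15 (m) and 6.27 (p) in the anti-CCL3 group, against 6.47 (m) and 6.87 (p) in the isotype group, with the isotype array of fraction p highest. Its antibody difference was -0.32 in fraction m and -0.60 in p; the fitted value was -0.46 ± 0.14 (SE, 4 arrays). Retnla and Arg1 were thus higher and Mrc1 and Il10 lower after anti-CCL3 antibody. Since the genes were chosen on this contrast, both signs among them were known beforehand, and nothing is concluded from them. These signs were the same after quantile, cyclic loess and both kinds of median-centring normalisation.

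**Figure D1:**
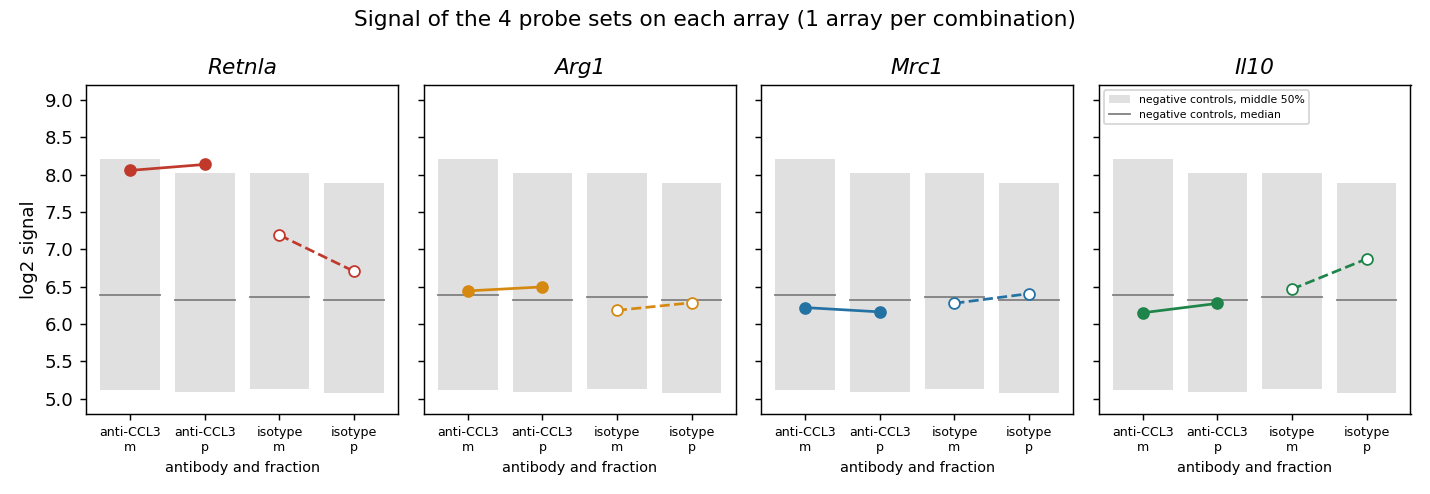
Log2 signal (vertical axis) of Retnla, Arg1, Mrc1 and Il10 on each of the 4 arrays (horizontal axis); filled points are anti-CCL3 arrays, open points isotype arrays, and lines join the fractions of 1 antibody group. Grey boxes span the middle 50% of the negative-control probe sets of that array, with their median as a line; only Retnla in fraction p after anti-CCL3 antibody, at 8.14, lies outside the box.

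Antibody groups without overlap were common on these arrays. Among 15071 tested genes, 21.5% had both anti-CCL3 arrays above both isotype arrays, as Retnla and Arg1 did, and 10.8% had both below, as Mrc1 and Il10 did. Among 5222 negative-control probe sets, which are not meant to match a mouse transcript, the shares were 16.1% and 14.6%. Since the genes were chosen on this contrast, nothing is read from their own count. With 2 arrays against 2, and fraction disregarded, the smallest two-sided p of an exact permutation test is 0.333. Exchanging antibody labels only within fractions leaves fewer arrangements and hence a larger smallest p.

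All 4 genes had signals within the spread of the negative controls. The median of the negative controls lay between 6.32 and 6.39 on the 4 arrays, and their upper quartile between 7.88 and 8.20. Retnla stood at percentiles 73.4 (m) and 76.2 (p) of the negative controls in the anti-CCL3 group, and at 64.2 (m) and 57.3 (p) in the isotype group. Arg1 lay between percentiles 46.8 and 53.1, Mrc1 between 46.6 and 51.8, and Il10 between 45.5 and 59.9. Among 65956 transcript clusters, the probe sets of the array's transcripts, the mean signal of Retnla was at percentile 85.2, that of Il10 at 61.4, that of Arg1 at 57.7 and that of Mrc1 at 53.8. These levels do not show that macrophages of either fraction transcribed Arg1, Mrc1 or Il10. Markers of the labelled cell type also lay in the range of the negative controls, as given further on, and whether the deposited values follow transcript amounts cannot be settled from the files.

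The size of the Retnla difference was also met among negative controls. A difference of at least 0.87 in both fractions, the smaller of the Retnla values, was found in 299 tested genes, or 1.98%, of which 38 were among 8316 protein-coding genes. It was found in 300 negative controls, or 5.74%. For Il10, 1.88% of tested genes and 13.7% of negative controls were at least as far below 0 in both fractions. For Arg1 the shares were 13% and 18.9%, and for Mrc1 11.1% and 22%. By fitted difference Retnla ranked 493 from the top of 15071 genes, and Il10 ranked 457 from the bottom. How many probes a negative-control set holds is not given in the sources used, so its spread need not be that of a transcript's probe set.

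**Figure D2:**
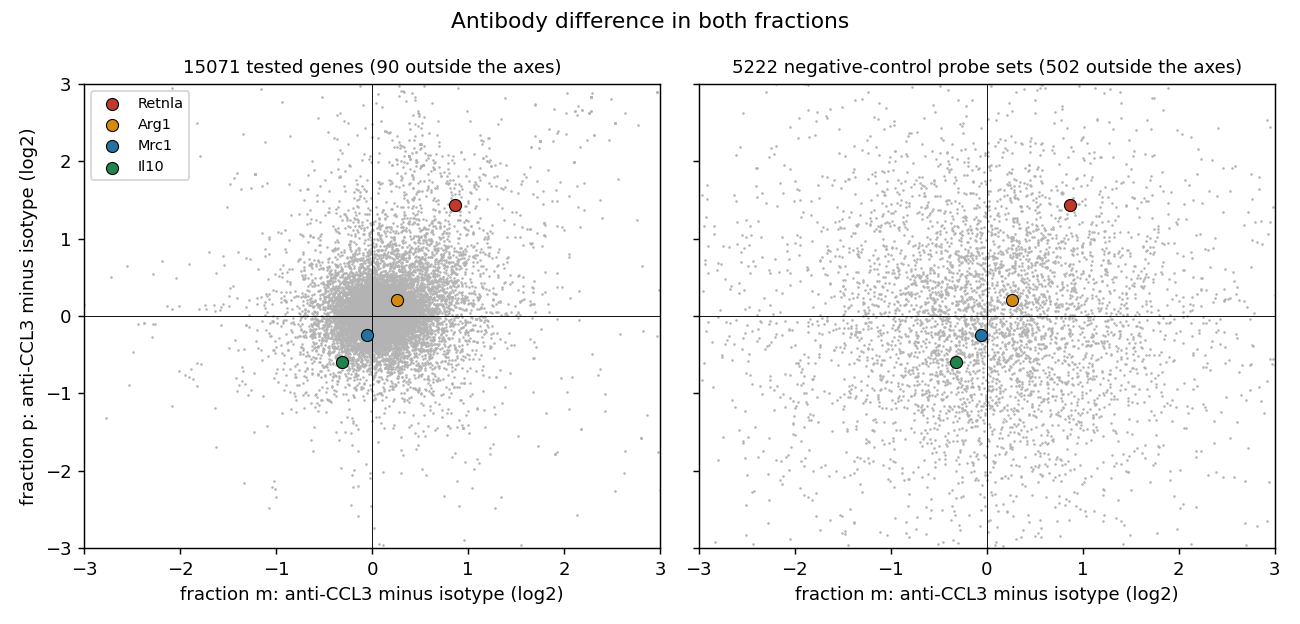
Antibody difference (anti-CCL3 minus isotype, log2) in fraction m (horizontal axis) against fraction p (vertical axis) for 15071 tested genes (left) and 5222 negative-control probe sets (right), in grey, with the 4 genes in colour in both panels; 90 genes and 502 negative controls lie outside the axes. Retnla, at 0.87 and 1.43, lies at the edge of the dense part of the genes and inside the spread of the negative controls.

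Over all tested genes the antibody comparison called 0 of 15071 genes (0%) in limma's test at a Benjamini-Hochberg adjusted p below 0.05, and 1182 had an unadjusted p below 0.05 (974 in the higher and 208 in the lower direction). The median antibody difference of these genes was 0.04, their 5th percentile -0.34 and their 95th percentile 0.87. With 1 residual degree of freedom, a count of 0 does not show that no gene differed by as much as Retnla. Retnla lay above, and Il10 at -0.46 below, the middle 90% of tested genes, while Arg1 and Mrc1 lay inside it.

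As far as is stated, differences between fractions p and m were not what the genes were chosen by, although earlier results of these data were known. Retnla was 0.08 higher in fraction p after anti-CCL3 antibody and lower after isotype control, at -0.49, with a fitted difference of -0.20 (95% interval -0.90 to 0.50). Il10 was higher in fraction p in both antibody groups, at 0.13 and 0.40, with a fitted difference of 0.26 (95% interval -0.21 to 0.74). Arg1 was at 0.05 and 0.10, with a fitted difference of 0.08 (95% interval -0.31 to 0.46), and Mrc1 at -0.06 and 0.13, with 0.04 (95% interval -0.39 to 0.46). None of the 4 genes passed limma's test for fraction, with Benjamini-Hochberg adjusted p of 0.844 for Retnla, 0.705 for Il10, 0.899 for Arg1 and 0.966 for Mrc1. Over all genes 0 of 15071 (0%) were called, and 1399 had an unadjusted p below 0.05 in limma's test (255 higher and 1144 lower in fraction p). The median fraction difference of all tested genes was -0.05. The intervals are wide enough to hold a difference of 0.4 in either direction for Retnla, so these values do not show that the fractions are alike.

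The other genes of the pathway came from 9 lists of 96 genes, of which 86 had their own probe set and 38 were bright enough to be tested. In limma's test with Benjamini-Hochberg adjustment 0 of these 38 passed for antibody and 0 for fraction. Their median antibody difference was 0.02, against 0.04 over all tested genes. Both anti-CCL3 arrays lay above both isotype arrays in 4 of 38 (10.5%) and below them in another 4, against the shares of 21.5% and 10.8% given above. The differences ran from -0.16 in Il23a, a cytokine subunit of the classical state, to 0.44 in Il1a, an inflammatory cytokine. Il23a and Il1a are named as the ends of this range after their values were seen. The 1.15 of Retnla, which was chosen on this contrast, was reached by 0 of 38. Among all 15071 tested genes 493 reached it, Retnla included, so a count of 0 in 38 does not set the lists apart.

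Upstream in the pathway, the ligand gene Il4 and the receptor gene Il4ra had mean signals of 5.77 and 6.06, too dim to be tested. Il13, the second ligand, stood at an antibody difference of 0.07 ± 0.13 (SE, 4 arrays). Of 5 tested genes in this list of ligands, receptors and signal transducers, 3 were higher and 2 lower, with a median of 0.00 that turned to between -0.02 and -0.01 under the other normalisations. Of the transcription factors that support alternative activation, Pparg, Irf4 and Klf4 had mean signals of 5.43, 5.76 and 6.06 and were not tested. The 2 tested genes of that list were both higher, with a median of 0.08.

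Among effector genes of the alternatively activated state, 8 of 11 tested were higher and 3 lower, with a median of 0.02. After quantile normalisation 4 were higher and 7 lower, with a median of -0.02. The galactose-type lectin gene Clec10a, a standard marker of the state, had a difference of 0.10 ± 0.12 (SE, 4 arrays), which was 0.01 after quantile normalisation and 0.03 after cyclic loess. Its close relative Mgl2 was at 0.00 ± 0.12 (SE), and at -0.04 after quantile normalisation. The haemoglobin scavenger receptor gene Cd163 was at -0.09 ± 0.13 (SE). None of these 3 differences exceeded its error.

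The resistin family held 1 tested gene besides Retnla. Retn, which encodes resistin, had log2 signals of 6.21 (m) and 6.20 (p) in the anti-CCL3 group, against 6.34 (m) and 6.39 (p) in the isotype group, a difference of -0.16 ± 0.11 (SE, 4 arrays) and of the opposite sign to Retnla. Retnlb and Retnlg, which lie near Retnla on chromosome 16, had mean signals of 5.55 and 5.86 and were not tested. Retnlb had signals of 5.52 (m) and 5.79 (p) in the anti-CCL3 group against 5.29 (m) and 5.61 (p) in the isotype group. These overlap, but its antibody difference had the sign of Retnla in both fractions, at 0.23 in m and 0.19 in p. Retnlg, whose upstream sequence is shown above, had signals of 5.94 (m) and 5.68 (p) in the anti-CCL3 group against 5.86 (m) and 5.97 (p) in the isotype group, which overlap.

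Around arginase, the arginine and polyamine list had 3 of 4 tested genes higher and 1 lower, with a median of 0.09. Odc1, the ornithine decarboxylase that uses the product of arginase, had signals of 7.77 (m) and 7.75 (p) in the anti-CCL3 group against 7.70 (m) and 7.34 (p) in the isotype group, a difference of 0.24 ± 0.15 (SE, 4 arrays). It was 0.12 after quantile normalisation, 0.14 after cyclic loess, 0.07 without either array of fraction p and 0.41 without either array of fraction m. The groups did not overlap, and the isotype array of fraction p was again the low one. Arg2, the mitochondrial arginase, was at -0.01 ± 0.13 (SE). Nos2, the inducible nitric oxide synthase that competes for arginine, had a mean signal of 5.97 and was not tested.

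Among relatives of the mannose receptor, 4 of 6 tested genes were higher and 2 lower, with a median of 0.03. Mrc2, the collagen receptor Endo180, was at 0.03 ± 0.13 (SE, 4 arrays), the dendritic cell receptor Ly75 at 0.11 ± 0.12 (SE), and the phospholipase receptor Pla2r1 at 0.03 ± 0.11 (SE). Each of these was within its error.

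Around Il10, both chains of its receptor, Il10ra and Il10rb, had mean signals of 5.08 and 5.17 and were not tested. Stat3, the transducer of IL-10, was at 0.08 ± 0.12 (SE, 4 arrays). Both tested genes of its list of receptors, signal transducers and targets were higher, with a median of 0.04, and under the other normalisations 1 was higher and 1 lower. Of the cytokine genes that lie near Il10, Il19 and Il24 were too dim to be tested and Il20 was at -0.16 ± 0.21 (SE), from 0.12 in m to -0.45 in p. Both tested genes of that cluster were lower, with a median of -0.09. In the list of classical activation 2 of 5 tested genes were higher and 3 lower, with a median of -0.03. Tnf was at -0.04 ± 0.11 (SE), and Il1b and Il6 had mean signals of 5.85 and 5.24 and were not tested.

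**Figure D3:**
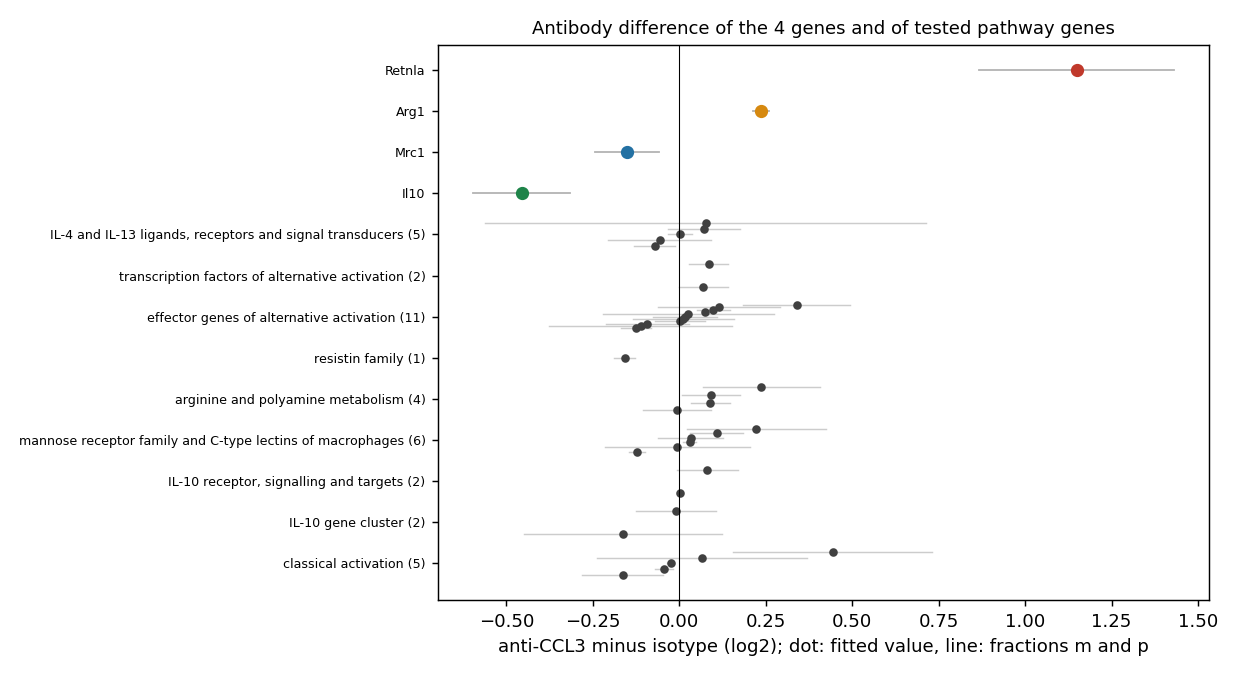
Fitted antibody difference (anti-CCL3 minus isotype, log2, horizontal axis) of the 4 genes (coloured dots) and of the tested genes of 9 pathway lists (dark dots, number of tested genes in brackets); each line spans the differences in fractions m and p. Retnla, at 1.15, lies to the right of all listed genes, which run from -0.16 to 0.44. Retnla was chosen on this contrast, and 493 of 15071 tested genes, Retnla included, reach its value.

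The genes with profiles most like that of Retnla were found by Euclidean distance between log2 values over 4 arrays, each centred on its own mean. The 5 nearest were the predicted gene Gm2427, the pseudogenes Olfr1004-ps1 and Gm22330, the small nuclear RNA gene Gm25515 and the small nucleolar RNA gene Gm24869, at distances from 0.06 to 0.14. Their antibody differences lay between 1.02 and 1.19, and values near that of Retnla follow from the way these genes were picked. No gene of the pathway lists was among them. As no tested gene of those lists had an antibody difference above 0.44, this was settled beforehand and nothing is read from it.

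Markers of the labelled cell type and of other cells that could carry these transcripts were read on the same arrays. Of 15 macrophage and Kupffer cell markers, 6 exceeded the negative-control median of 6.34 and 0 their 95th percentile of 11.6. Exceeding that median was common over the array, since the mean signal of Arg1, 6.35, was only at percentile 57.7 of all transcript clusters. The sorting markers Adgre1 (F4/80) and Itgam (CD11b) had mean signals of 6.43 and 6.26, and Csf1r, the macrophage growth factor receptor, 5.38. After anti-CCL3 antibody Adgre1 was lower, at -0.17 ± 0.12 (SE, 4 arrays), and Itgam higher, at 0.20 ± 0.11 (SE). Neither overlapped between antibody groups, as in 10.8% and 21.5% of tested genes in those directions. Their fitted differences between fractions, p minus m, were -0.04 and -0.02. The median signal of all macrophage and Kupffer cell markers was 6.18 (m) and 6.28 (p) in the anti-CCL3 group against 6.28 (m) and 6.15 (p) in the isotype group. The scavenger receptor gene Marco was the brightest of the list, at 8.40, above the upper quartile of the negative controls, 7.84. The neutrophil marker Ly6g, at 7.98, also exceeded that quartile. Both are named after their values were seen. The levels of the macrophage markers do not show the labelled cell type by its defining markers. Of 8 hepatocyte markers with a probe set, 3 exceeded the negative-control median. Alb at 6.61 and Apoa1 at 6.41 lay above it, and Ttr at 5.73 below it. Of 10 sinusoidal endothelial markers 1 exceeded it, while Stab2 at 6.01, Lyve1 at 6.01 and Pecam1 at 6.16 lay below it. The antibody differences of Alb, Apoa1 and Ttr were 0.00, 0.06 and -0.02, and the median over the 4 tested hepatocyte markers was 0.03. The median signal of all hepatocyte markers was 6.23 (m) and 6.14 (p) in the anti-CCL3 group against 6.04 (m) and 6.00 (p) in the isotype group. That of endothelial markers was 5.90, 5.89, 5.89 and 5.79 in the same order. The medians of monocyte markers were 6.70, 6.71, 7.02 and 6.48, of eosinophil and basophil markers 5.89, 6.30, 5.95 and 6.17, and of neutrophil markers 6.45, 6.52, 6.52 and 6.10. For T cell markers they were 6.24, 6.75, 6.29 and 6.39, for B cell markers 6.52, 6.43, 6.67 and 6.59, for stellate cell and fibroblast markers 6.10, 6.21, 6.15 and 6.03, and for epithelial tumour cell markers 5.98, 5.95, 5.94 and 5.93. The negative-control median was exceeded by 4 of 6 monocyte markers, 3 of 5 T cell markers, 3 of 4 B cell markers and 5 of 9 neutrophil markers. It was exceeded by 3 of 8 eosinophil and basophil markers, 3 of 8 stellate cell and fibroblast markers and 0 of 8 epithelial tumour cell markers. None of these lists had a marker above the 95th percentile of the negative controls. Their part in the differences of the 4 genes was not tested, and in RNA of many cells fewer cells of a type and less RNA per cell cannot be told apart.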

How the data were processed

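Per the labels' protocols, RNA was amplified and labelled with a GeneChip WT Pico kit. Per the submitters' processing notes, the authors made the deposited log2 signals, 1 per probe set and array, by RMA in Affymetrix Expression Console. The versions, options and genome build are not given in the sources used. That the values are log2 is taken from what RMA usually returns. Their range, 2.34 to 19.9, does not settle the scale, and the fold ratios given here hold only if it is log2.

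Probe sets with exactly 1 symbol in the platform annotation were named, repeated symbols counted once, and 827 symbols were updated by gene number. Per gene the brightest probe set was kept, and genes with a mean of at least 6.16, the median, were tested (15071 of 30142). Under R 4.3.3, limma 3.58.1 fitted antibody and fraction as additive terms to 4 arrays, with 1 residual and 1.69 prior degrees of freedom and Benjamini-Hochberg adjustment at 0.05. Fitted errors near 0.11 are set largely by the prior. Errors combine that prior, which is drawn from all tested genes, with the residual of the gene itself. With 1 array per combination, this residual holds only how far the antibody difference of a gene disagrees between fractions. It is not a spread between replicate arrays. Nothing in the labels says whether arrays came from separate animals, so errors need not measure a spread between animals. The fit was tested on simulated data. Members, lists and tests were chosen with earlier results of these data known. The first 3 genes of each pathway list that had a probe set were named, with the 5 profiles most like Retnla. Of the marker lists, 3 have their first 3 genes named and the others are given by medians. Marco and Ly6g are named besides these for their high signals. Alternatives were 4 normalisations, a fit without the other factor, an intensity trend, the mean over probe sets, other filters and leaving out each array.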

Additional observations from a re-analysis of the deposited data

Results flagged for a closer look

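Differences of opposite sign in both fractions, or in both antibody groups, come from 1 array on each side, and their contrast was not tested. For the 4 genes this held for the fraction difference, which in Retnla was 0.565 larger after anti-CCL3 antibody than after isotype control, and in Mrc1 differed by -0.186 in the same sense. Among the named pathway genes bright enough to be tested, it held for the antibody difference. There fraction p minus fraction m was -0.571 in Il20, 0.178 in Stat3, -0.206 in Il13, -0.198 in Arg2, -0.146 in Mgl2, -0.241 in Cd163 and -0.188 in Mrc2. Named genes too dim to be tested were left out, though some also had opposite signs, among them Retnlg, Il1b and Il6.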

How the results depend on the processing

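Leaving out an array reduces each antibody difference to that of the other fraction, and each fraction difference to that of the other antibody group, with no residual degree of freedom and hence no test. The fraction difference of Retnla then ran from -0.485 to 0.0797 and that of Mrc1 from -0.0576 to 0.128, turning sign without either isotype array. The antibody difference of Retnla ran from 0.87 to 1.43. All other alternatives kept the sign of every antibody and fraction difference of the 4 genes, although Arg1, Mrc1 and Il10 were too dim for the stricter filter on dim genes. The counts of called genes were 0 for both comparisons under each alternative, those without 1 array fitted with the tested factor alone. Among antibody differences of named pathway genes under the alternatives, 137 stayed and 22 moved by more than the spread between fractions or changed sign, among them Mgl2 after all 4 normalisations. Set against transcript clusters in place of negative controls, the mean signal of Retnla stood at percentile 85.2 in place of 71.2. The number of arrays, and signals near those of the negative controls, limit every value here, and whether the deposited values follow transcript amounts cannot be settled from the files.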
